A study of Mus musculus with 15 samples.

Results

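The matrix metalloproteinase (MMP) and tissue inhibitor of metalloproteinase (TIMP) genes analysed here were chosen by name, as the rows of the deposited count tables with the symbols Mmp2, Mmp3, Mmp10, Mmp13, Mmp14, Mmp19, Timp1, Timp2, Timp3 and Timp4. They are 10 genes, 6 MMPs and 4 TIMPs, of the 26509 genes listed in either table. Of these, 8 were analysed in cultured mouse retinal pigment epithelium cells (mRPE), where Mmp10 and Timp4 are not analysed here, and 9 in RPE/choroid, where Mmp10 is not analysed here. Each of the 8 and the 9 also passed the filter on low counts and was tested.

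MMPs are zinc-dependent enzymes that are made as inactive precursors and cut proteins of the extracellular matrix, and TIMPs bind their active site and block it. MMP14 is anchored in the cell membrane and activates the MMP2 precursor with TIMP2 as the bridge between them, so TIMP2 both inhibits and helps to activate. In the eye, RPE cells secrete TIMP3 into Bruch's membrane, the sheet of matrix beneath them, where it stays bound, and TIMP3 is the gene of Sorsby fundus dystrophy.

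The study sequenced polyA RNA from 15 libraries to describe how loss of Prom1, a membrane glycoprotein gene, changes RPE. The 9 libraries of cultured cells came from the mRPE line, made from pooled RPE cells of young adult C57/BL6J mice and immortalized with human papillomavirus E6/E7. Of these, 4 were of WT cells, 3 of the Prom1-KO clone KO22 and 2 of the Prom1-KO clone KO26. Both clones were made with Cas9 and a guide RNA to exon 5 of Prom1. Each clone is 1 edited line, so its libraries do not stand for independent edits. The study reports deletions at separate Prom1 sites in its knockout lines, with Prom1 protein absent and Prom1 mRNA reduced in both. The 6 libraries of RPE/choroid came from 3 WT samples and 3 labelled Prom1_KO, from Prom1 fl/fl mice crossed with RPE65-Cre mice and given tamoxifen, a design in which only RPE cells should lose the gene. The age and the number of mice per RPE/choroid library are not given in the sources used here, and nothing says that the mRPE libraries came from separate cultures, so p-values measure only the spread between these libraries. The library names put 1 WT, 1 KO22 and 1 KO26 library in batch 1 and the rest of the mRPE libraries in batch 2. In each of these groups, replicate 1 is the library of batch 1. The study removed both KO26 libraries as outliers after batch correction. They are kept here as a group of their own, and KO22 with WT was fitted without them.

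The total count was 8076188 to 27537863 per mRPE library and 48154444 to 61766179 per RPE/choroid library, of which mitochondrial genes took 12.9% to 21.6% and 64.9% to 84.2%. RPE/choroid replicate 3 labelled Prom1_KO stood apart, with 84.2% mitochondrial counts and 9776466 other counts, against 71.3% at most in the other RPE/choroid libraries. Prom1 in RPE/choroid was at 48.7, 49.5 and 53.3 CPM (counts scaled by library size) in WT and at 49.9, 48.1 and 35.5 CPM in the libraries labelled Prom1_KO, so these groups overlapped and the targeted gene does not check their labels. Prom1 is not analysed here in mRPE. Rpe65 was at 204 to 287 CPM in WT RPE/choroid and at 1.13 to 5.97 CPM in the libraries labelled Prom1_KO. In mRPE, 3 of 13 RPE markers were analysed (Best1, Mitf and Slc16a1), with a summed level of 28.9 to 44.6 CPM in WT, and the defining markers Rpe65, Rlbp1 and Lrat are not analysed here. The 9 of 10 fibroblast and mural markers analysed there summed to 2437 to 3104 CPM in WT mRPE.

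The promoters of 4 members are shown. They are the pair whose mRNA passed both limits below, in opposite directions, and 2 MMPs of the chromosome 9 cluster whose levels were low in mRPE. The sequences are RefSeq promoters on GRCm38.p6, from 250 bases before the annotated start to 50 after, with capitals marking AP-1 sites (TGANTCA), GC boxes (GGGCGG) and TATA boxes (TATAAA), each searched on both strands.
Timp1 (chrX:20869916-20870215, plus strand): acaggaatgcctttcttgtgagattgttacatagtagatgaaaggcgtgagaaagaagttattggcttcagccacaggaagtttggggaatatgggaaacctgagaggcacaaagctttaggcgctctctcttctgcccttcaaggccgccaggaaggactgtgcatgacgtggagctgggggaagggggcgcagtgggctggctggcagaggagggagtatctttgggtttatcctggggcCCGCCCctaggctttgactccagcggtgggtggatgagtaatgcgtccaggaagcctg
Timp3 (chr10:86300162-86300461, plus strand): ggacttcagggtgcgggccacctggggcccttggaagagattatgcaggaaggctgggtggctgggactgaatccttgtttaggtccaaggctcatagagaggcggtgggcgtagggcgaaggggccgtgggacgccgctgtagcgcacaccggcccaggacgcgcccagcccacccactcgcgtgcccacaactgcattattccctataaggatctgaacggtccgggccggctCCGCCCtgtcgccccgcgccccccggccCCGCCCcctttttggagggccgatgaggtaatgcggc
Mmp3 (chr9:7445572-7445871, plus strand): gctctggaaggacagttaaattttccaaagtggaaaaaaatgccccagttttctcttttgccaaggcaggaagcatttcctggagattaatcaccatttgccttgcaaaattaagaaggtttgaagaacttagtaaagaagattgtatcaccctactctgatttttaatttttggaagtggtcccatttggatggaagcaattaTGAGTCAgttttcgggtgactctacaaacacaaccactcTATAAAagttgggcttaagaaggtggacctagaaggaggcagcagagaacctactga
Mmp13 (chr9:7272264-7272563, plus strand): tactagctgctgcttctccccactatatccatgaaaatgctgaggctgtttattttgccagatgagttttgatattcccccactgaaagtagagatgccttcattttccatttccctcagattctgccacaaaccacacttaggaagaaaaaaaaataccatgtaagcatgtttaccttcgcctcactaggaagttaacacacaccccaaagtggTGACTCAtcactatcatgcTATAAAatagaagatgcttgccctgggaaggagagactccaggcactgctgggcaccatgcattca

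A promoter was matched for 8 of the 10 members, all but Mmp2 and Mmp19. The AP-1 letters stood in 3 of them, those of Mmp3, Mmp10 and Mmp13, with the first base at -46, -63 and -35 from the start, and in 7.81% of all 32851 promoters. The same 3 held TATAAA, which 13.6% of all promoters hold. The GC box letters stood in 4, those of Timp1, Timp2, Timp3 and Mmp14, and in 35.7% of all promoters. The share of G and C was 67.0% for Timp3, 68.7% for Timp2, 55.0% for Timp1 and 56.0% for Mmp14, against 37.7% to 43.7% for Mmp3, Mmp10 and Mmp13 and a median of 52.7% over all promoters. A match describes these letters in these windows and no more. AP-1 sites that depart from TGANTCA were not searched, so a promoter without a match may still hold one.

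On GRCm39, the build of the deposited counts (mm39), the TIMP genes lie on different chromosomes. Timp1 (ENSMUSG00000001131) is at chrX:20736316-20740976, Timp2 (ENSMUSG00000017466) at chr11:118191887-118246566, Timp3 (ENSMUSG00000020044) at chr10:86136236-86185371 and Timp4 (ENSMUSG00000030317) at chr6:115187773-115229336. Timp1, Timp3 and Timp4 each lie within a synapsin gene, Syn1, Syn3 and Syn2, on its opposite strand. Mmp13 (ENSMUSG00000050578, chr9:7272514-7283331), Mmp3 (ENSMUSG00000043613, chr9:7445822-7455975) and Mmp10 (ENSMUSG00000047562, chr9:7502353-7510241) belong to a cluster of 10 MMP genes that spans 427 kb of chromosome 9. Mmp2 (ENSMUSG00000031740) is at chr8:93553902-93580049, Mmp14 (ENSMUSG00000000957) at chr14:54668878-54682821 and Mmp19 (ENSMUSG00000025355) at chr10:128626773-128636695. All 10 are annotated as protein-coding.

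In WT mRPE, Mmp2, Timp2 and Timp3 were the most abundant members per length. Mmp2, the gelatinase that cuts basement membrane and denatured collagens, had a level of 130.7 ± 13.4 CPM per kb of exons (SD, n = 4), and Timp2 a level of 123.5 ± 13.1 CPM per kb, a difference within their spread. Timp3 followed at 77.0 ± 13.6 and Timp1, a secreted inhibitor of most MMPs, at 39.1 ± 7.85 CPM per kb. Mmp14 (16.2 ± 1.79) and Mmp19 (15.3 ± 1.74), again within their spread, came next on the same scale. The collagenase gene Mmp13 was at 1.59 ± 0.547 and the stromelysin gene Mmp3 at 0.313 ± 0.220 CPM per kb, the latter from 3 to 11 counts per library. In KO22 the order changed, with Mmp2 (224 ± 67.4, n = 3) and Timp1 (198 ± 11.1) above Timp2 (61.0 ± 11.3) and Timp3 (13.8 ± 13.4 CPM per kb). In KO26 the order of the means was Mmp2 (170 ± 3.57, n = 2), Timp2 (104 ± 20.3), Timp3 (89.8 ± 0.182) and Timp1 (61.3 ± 11.7 CPM per kb), as in WT. The difference between Timp2 and Timp3 was within their spread, with 89.83 and 89.95 CPM per kb in KO26 replicate 2.

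**Figure D1:**
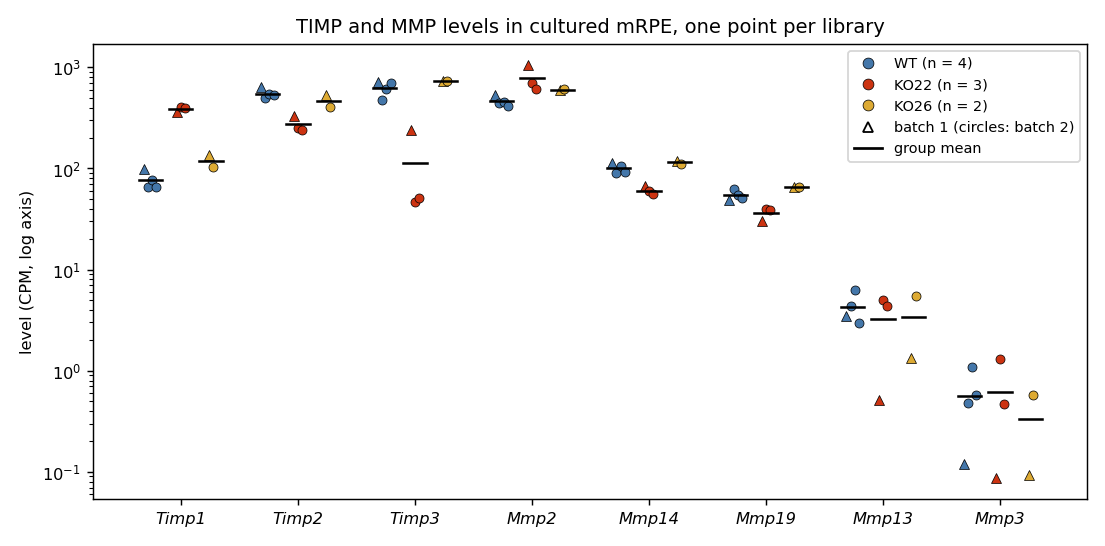
Level of each member in the 9 mRPE libraries, in CPM on a log axis, with 1 point per library (triangles for batch 1, circles for batch 2) and a line at the group mean. Timp1 in KO22 sits between 363 and 402 CPM, above every WT and KO26 library, and Timp3 in KO22 sits between 46.4 and 238 CPM, below them.

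The first question was how clone KO22, edited at Prom1, differed from WT cells in these genes. Timp1 rose and Timp3 fell past both limits set for a call (adjusted p below 0.05 and a log2 fold change beyond 1.2 in size), while no MMP member passed both. Of the 8 members, 2 passed both limits, beside 25.2% of all 20455 genes tested in this comparison (11.4% higher and 13.8% lower), so the share of members is near the background. The adjusted p alone was passed by 6 members, beside 53.0% of all genes. The levels of 6 members did not overlap between KO22 and WT, 2 higher and 4 lower, beside 50.1% of all genes (24.8% higher and 25.3% lower).

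Timp1 was at 97.7, 64.9, 77.7 and 65.4 CPM in WT replicates 1 to 4 and at 363, 402 and 400 CPM in KO22 replicates 1 to 3. Every KO22 library was above every WT library. The mean was 5.08-fold higher, with a log2 fold change of 2.34 (SE 0.145, 95% confidence interval 2.02 to 2.67, edgeR adjusted p = 2.75e-06). The difference in log2 CPM was 1.89 within batch 1 and 2.53 within batch 2.

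Timp3 was at 724, 477, 611 and 697 CPM in WT and at 238, 46.4 and 51.4 CPM in KO22. All KO22 libraries were below all WT libraries, and the KO22 library of batch 1 stood well above the other KO22 libraries. The mean CPM was 5.60-fold lower, a ratio that leaves batch aside. The fit with the batch term gave a log2 fold change of -3.02 (SE 0.383, interval -3.88 to -2.16, edgeR adjusted p = 0.000164). Without the batch term it was -2.49. The difference in log2 CPM was -1.60 within batch 1 and -3.58 within batch 2. Without WT replicate 1 the log2 fold change was -3.62, and without KO22 replicate 1 it was -3.60.

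Timp3 shares 1734 exonic bases with Syn3, 21.3% of its own exons and 8.11% of those of Syn3. The counting is not stated to use strand, so reads in this shared stretch cannot be told apart. How many reads of either gene fall in it is not given here. Syn3 counts were 44.8% to 50.4% of Timp3 counts in every mRPE library, and the log2 fold change of Syn3 was -3.02 as well. By the Pearson correlation of log2 CPM over the 9 mRPE libraries, given as a description, Syn3 was the gene most like Timp3 of 20737 genes (r = 0.9996), followed by Rassf2 (0.991) and Pag1 (0.985). These libraries fall into groups, so such values largely restate which genes differ between groups. For Timp1 the most alike were Nup160 (0.995), Rsl1d1 (0.995) and Vdac3 (0.995). Syn1, around Timp1, shares no exonic base with it, had 4.79% to 8.15% of its counts in mRPE, and rose by 2.06 on the log2 scale (edgeR adjusted p = 5.59e-06).

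Timp2 was at 634, 499, 543 and 529 CPM in WT and at 330, 249 and 238 CPM in KO22. The groups did not overlap. At -1.06 the log2 fold change (SE 0.109, edgeR adjusted p = 4.63e-05) passed the adjusted p but not the fold limit of 1.2.

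Mmp2 was at 527, 447, 459 and 414 CPM in WT and at 1063, 695 and 617 CPM in KO22, all above WT. Its log2 fold change of 0.70 (SE 0.128, edgeR adjusted p = 0.00137) did not pass the fold limit. Mmp14, the activator of the MMP2 precursor, was at 113, 90.1, 105 and 91.7 CPM in WT and at 66.4, 59.6 and 55.5 CPM in KO22. The groups did not overlap and the log2 fold change was -0.74 (SE 0.105, edgeR adjusted p = 0.000313), again within the fold limit. Mmp19, an MMP that cuts basement membrane proteins, was at 48.6, 62.6, 54.4 and 50.9 CPM in WT and at 30.2, 39.8 and 38.5 CPM in KO22, with a log2 fold change of -0.57 (SE 0.115, edgeR adjusted p = 0.00261). The exons of Mmp2 overlap those of the antisense gene Gm45472 by 860 bases, and those of Mmp19 overlap Tmem198b by 1084, and these neighbours had log2 fold changes of 0.74 and -0.72.

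Mmp13 and Mmp3 were low, and neither passed the test. Mmp13 was at 3.50, 4.32, 6.28 and 2.94 CPM in WT and at 0.519, 4.97 and 4.34 CPM in KO22. The groups overlapped, and the interval of the log2 fold change ran from -1.48 to 0.53. The difference in log2 CPM was -1.97 within batch 1, from 88 counts against 6, and 0.09 within batch 2. Mmp3 was at 0.119 to 1.08 CPM in WT and at 0.0865, 1.30 and 0.466 CPM in KO22, with 1 to 27 counts per KO22 library and an interval from -0.85 to 1.52. For both genes the libraries of batch 1 were lower than those of batch 2 in KO22 and KO26.

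With the TIMPs set side by side per length, the make-up of the TIMP mRNA differed between KO22 and WT. In WT mRPE, Timp1 gave 14.1% to 17.8% of the summed TIMP level, Timp2 49.9% to 54.9% and Timp3 28.8% to 36.0%. In KO22, Timp1 gave 64.2% to 77.4%, Timp2 20.2% to 25.6% and Timp3 2.14% to 10.1%. The ranges of Timp1 did not overlap, nor did those of Timp2 or Timp3. The summed TIMP level itself was 203.5 to 280.8 CPM per kb in WT and 263.7 to 288.8 in KO22, and its ratio to the summed MMP members was 1.27 to 1.61 in WT and 0.902 to 1.34 in KO22. Both of these ranges overlap between the groups when the batches are pooled. Within batch 1 the summed TIMP level was 280.8 CPM per kb in WT and 288.8 in KO22, and within batch 2 it was 203.5 to 237.4 in WT and 263.7 and 266.7 in KO22, so that each KO22 library was higher than the WT libraries of its batch. The ratio to the MMP members was 1.54 in WT and 0.902 in KO22 within batch 1, and its ranges overlapped within batch 2. These sums are of mRNA and weigh each inhibitor equally.

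**Figure D2:**
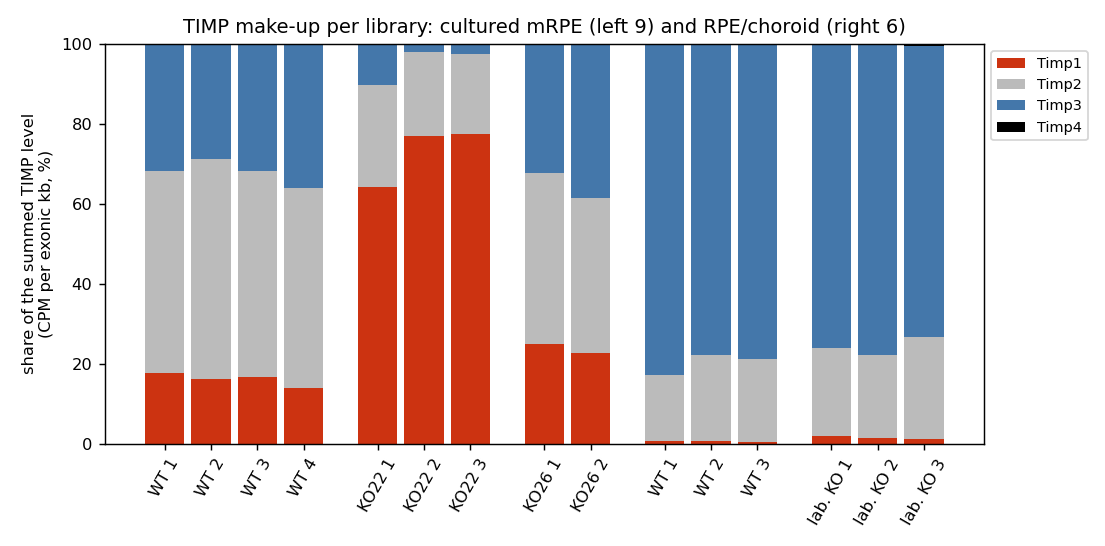
Share of each TIMP in the summed TIMP level (CPM per exonic kb, in %) for the 9 mRPE libraries on the left and the 6 RPE/choroid libraries on the right ("lab. KO" for those labelled Prom1_KO). Timp1 gives 64.2% to 77.4% in KO22 against 14.1% to 17.8% in WT mRPE, and Timp3 gives 73.0% to 82.7% in RPE/choroid.

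Genes of the RPE, fibroblast and mural and endothelial marker lists differed in both directions in the same comparison. The 3 RPE markers analysed summed to 28.9 to 44.6 CPM in WT and 77.8 to 109.6 CPM in KO22, and 2 of them, Mitf and Slc16a1, rose (log2 fold changes 1.41 and 1.43). The fibroblast and mural markers (9 of 10 analysed) summed to 2437 to 3104 CPM in WT and 825 to 953 CPM in KO22. Of the 9, 5 fell, among them Pdgfra, Acta2 and Pdgfrb, which hold most of the sum, and 2 rose, Fbln1 from a mean of 6.00 to 73.7 CPM and Cspg4 from 6.31 to 22.99 CPM. The endothelial markers (6 of 9 analysed) summed to 154 to 238 CPM in WT and 4.89 to 6.75 CPM in KO22. That sum was mostly Kdr, which fell from 151 to 234 CPM in WT to 0.346 to 3.71 CPM in KO22. Over the 6 endothelial genes 1 rose (Plvap, from 0 to 19 counts per WT library) and 2 fell, with a median log2 fold change of 0.09. Cdh5, Tie1 and Emcn of the endothelial list and Lum of the fibroblast list are not analysed here in mRPE. Their part in the levels of Timp1, Timp2, Timp3 and the MMPs was not tested.

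Of the other MMP genes, 12 of 17 were tested in KO22 with WT, of which 1 rose and 3 fell, beside the 11.4% higher and 13.8% lower over all genes, which also stand for the lists that follow. The median log2 fold change was -0.47, beside -0.03 over all genes. Mmp9, the second gelatinase, rose from 1.31 to 2.80 CPM in WT to 4.29 to 4.67 CPM in KO22 (log2 fold change 1.29, SE 0.271, edgeR adjusted p = 0.00317). Mmp8, the neutrophil collagenase, fell from 18 to 32 counts per WT library to 0, 1 and 0 counts in KO22. From counts pooled over libraries, 99 against 1, the ratio was 70.0 (exact 95% counting interval 12.3 to 2794). That interval covers counting noise alone and leaves out the spread between libraries and batches, so it can be too narrow. Mmp27 fell from 23 to 40 counts per WT library to 0, 7 and 1 counts in KO22 (edgeR adjusted p = 0.000323). Mmp23 fell by 1.73 on the log2 scale (edgeR adjusted p = 0.0146).

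Mmp8 and Mmp27 belong to the chromosome 9 cluster with Mmp13 and Mmp3. Of its 10 genes 5 were analysed, in the order Mmp13, Mmp12, Mmp3, Mmp8 and Mmp27, and the 2 that fell are neighbours. Of 14 other genes tested within 1 megabase of the cluster, 1 rose and 4 fell, with a median log2 fold change of -0.27, beside 0.27 for the 1171 genes tested on chromosome 9. In KO26, Mmp8 had 20 and 14 counts and Mmp27 14 and 20, within or just below the WT counts. The medians over the other chromosomes that hold members differed too in KO22 with WT. They were -0.54 on chromosome 10 (Timp3 and Mmp19), 0.60 on chromosome 8 (Mmp2), 0.20 on chromosomes X (Timp1) and 14 (Mmp14) and -0.03 on chromosome 11 (Timp2).

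**Figure D3:**
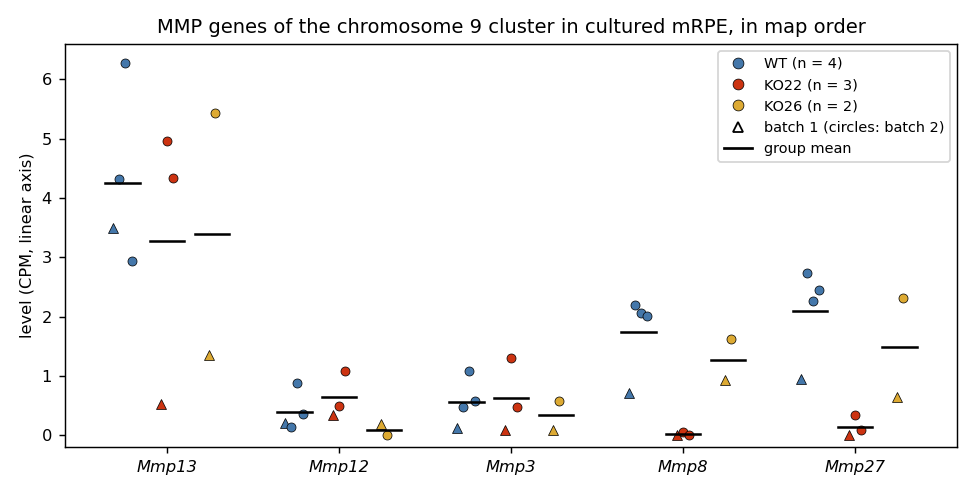
Level in CPM (linear axis) of the 5 analysed MMP genes of the chromosome 9 cluster, in map order, with 1 point per mRPE library (triangles for batch 1, circles for batch 2) and a line at the group mean. Mmp8 and Mmp27 lie at or near 0 in the 3 KO22 libraries and above 0.6 CPM in every WT and KO26 library, while Mmp13 and Mmp3 overlap between groups.

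Among 13 genes of MMP activation and clearance tested, 5 rose and 2 fell in KO22 with WT, with a median log2 fold change of 0.01. Reck, a membrane-anchored inhibitor of MMPs, was at 64.5, 71.6, 82.7 and 82.1 CPM in WT and at 8.30, 9.50 and 8.92 CPM in KO22. No library overlapped, and Reck fell by 3.06 on the log2 scale (SE 0.124, edgeR adjusted p = 3.72e-07). Plaur, the urokinase receptor, rose by 2.89, Cav1, the coat protein of caveolae, by 2.24, Cd44, a hyaluronan receptor, by 1.68, Sdc1, a syndecan, by 1.38 and Itgb3, an integrin subunit, by 1.28 on the log2 scale.

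Of 18 genes of factors that induce MMP transcription, 5 rose, 0 fell and 13 did not pass both limits, with a median log2 fold change of 0.49. Over all genes 25.2% were called in either direction, 11.4% higher and 13.8% lower. Fosl1, a subunit of AP-1, was at 12.0 to 23.2 CPM in WT and 98.0 to 190 CPM in KO22 (log2 fold change 2.81). The ETS factors Etv4 and Etv5 rose by 2.92 and 2.00, and the cytokine genes Il1a and Il6 by 5.44 and 2.60 on the log2 scale, Il1a from 0 to 4 counts per WT library. The part of these 5 genes in the levels of the members was not tested.

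Among the other matrix proteases and the MMP substrates, about as many genes passed both limits as did not. Of 20 ADAM and ADAMTS genes tested, 1 rose, 9 fell and 10 were not called, with a median of -0.83. The aggrecanase genes Adamts15 and Adamts5 fell by 4.91 and 2.37, Adamts9 by 2.41, the procollagen peptidase gene Adamts2 by 1.63 and Adamts1 by 1.36, while Adamts7 rose by 2.18 on the log2 scale. Of 20 matrix substrates, 2 rose, 8 fell and 10 were not called, with a median of -0.55. Col8a1 fell by 2.51, Efemp1 by 2.36, Col6a1 by 1.81 and Col5a1 by 1.31, while Lama5 rose by 3.30 and Vcan by 2.30 on the log2 scale. The median over all genes was -0.03, and each of these genes had an edgeR adjusted p under the 0.05 limit.

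The next question was whether the other Prom1-KO clone, KO26, showed the same changes. None of the 8 members passed both limits in edgeR or in DESeq2, beside 1.92% of all 20737 genes tested in edgeR (1.21% higher and 0.719% lower). At an unadjusted p under 0.05 edgeR counted 3 members (Timp1, Timp2 and Mmp19). No share of all genes at that limit is given here, so this count cannot be read as a result about the members. At an adjusted p under 0.05 alone edgeR counted 0, beside 3.5% of all genes in edgeR, and DESeq2 counted 2 (Timp1 and Timp2). The DESeq2 share of all genes at that limit is not given here, so its count cannot be read as a result about the members. By both limits DESeq2 called 360 genes higher and 269 lower, against 250 and 149 in edgeR. The levels of 4 members did not overlap with WT, all of them higher, beside 24.7% of all genes in either direction and 11.9% higher. KO26 has 2 libraries, and both clones were compared with the same 4 WT libraries.

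Timp1 was at 136 and 104 CPM in KO26, above the highest WT library at 97.7 CPM and below the lowest KO22 library at 363 CPM. Its log2 fold change against WT was 0.59 (SE 0.166, interval 0.22 to 0.96, edgeR adjusted p = 0.0843). Timp3 was at 731 and 733 CPM, just above the highest WT library at 724 CPM, with a log2 fold change of 0.04 (interval -0.88 to 0.95). Timp2, at 529 and 401 CPM, overlapped with WT (log2 fold change -0.35, interval -0.63 to -0.06, edgeR adjusted p = 0.169). None of the inhibitors passed both limits in this clone. Over the alternatives the adjusted p of Timp1 ran from 0.00304 (edgeR, batch 2 alone) to 0.383, and it was also under 0.05 in DESeq2 (0.0319), in edgeR with the WT and KO26 libraries alone (0.00784) and in edgeR without KO22 replicate 1 (0.00315). That of Timp2 was under 0.05 in DESeq2 (0.0409) and in edgeR without KO22 replicate 1 (0.0451).

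Mmp2 was at 592 and 610 CPM and Mmp19 at 65.4 and 65.1 CPM, all above WT, with log2 fold changes of 0.31 (edgeR adjusted p = 0.329) and 0.33 (edgeR adjusted p = 0.232). Mmp14, at 119 and 112 CPM, overlapped with WT. Mmp13 was at 1.35 and 5.43 CPM and Mmp3 at 0.0928 and 0.578 CPM. Of the other lists, Mmp9 (log2 fold change 2.02, edgeR adjusted p = 0.00859) and Adamts8 (2.47, edgeR adjusted p = 0.0305) rose in KO26, of which DESeq2 called Mmp9 and not Adamts8. Of the 13 genes of MMP activation and clearance, 18 of inducing factors and 20 matrix substrates, 0 were called in edgeR, and DESeq2 called 1, Eln. In edgeR 4, 3 and 11 of them had an unadjusted p under 0.05, again with no share of all genes to set beside these counts. Reck was at 49.0 and 74.6 CPM in KO26 (log2 fold change -0.22, edgeR adjusted p = 0.416).

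**Figure D4:**
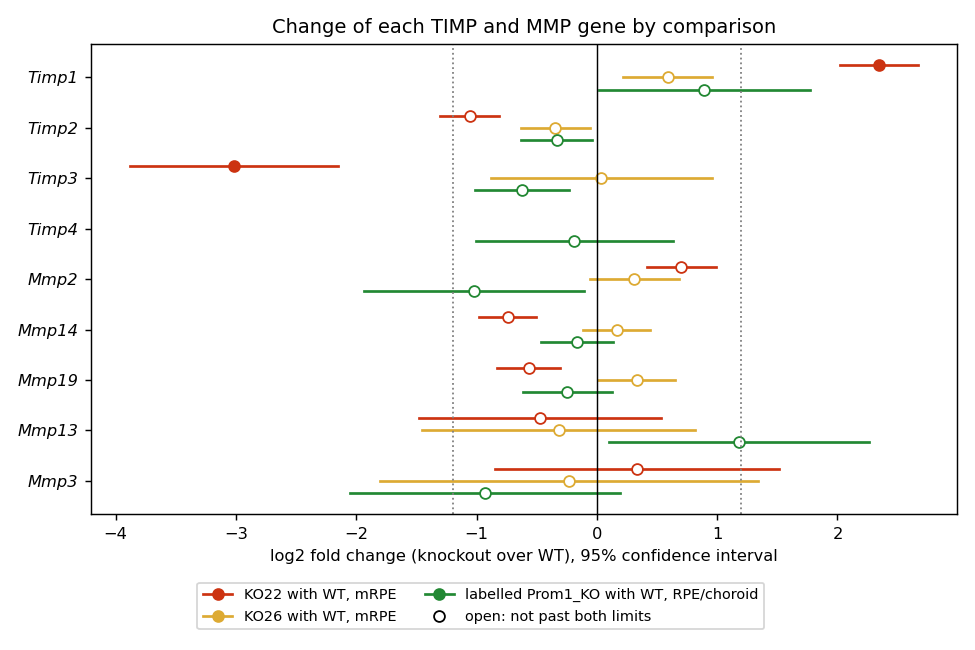
Log2 fold change of each member with its 95% confidence interval, for KO22 with WT and KO26 with WT in mRPE and for the libraries labelled Prom1_KO with WT in RPE/choroid. Filled points passed both limits (dotted lines at an absolute log2 fold change of 1.2) and open points did not, and only Timp1 (2.34) and Timp3 (-3.02) in KO22 are filled.

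The difference between the clones was tested directly in the fit over the 9 mRPE libraries, as KO22 against KO26. Of the 8 members, 2 passed both limits, 1 higher and 1 lower, beside 18.3% of all genes tested (7.56% higher and 10.7% lower). The adjusted p alone was passed by 5, beside 34.4%, and 6 did not overlap, 2 higher and 4 lower, beside 47.9% (23.4% higher and 24.6% lower). Timp1 was higher in KO22 by 1.76 on the log2 scale (SE 0.188, edgeR adjusted p = 7.52e-05), and Timp3 was lower, at -2.92 (SE 0.446, edgeR adjusted p = 0.000718). The Timp3 difference was -1.61 within batch 1 and -3.89 within batch 2 in log2 CPM, and the fitted difference was -3.81 without KO22 replicate 1 and -2.16 without KO26 replicate 2. Mmp14 (-0.90), Mmp19 (-0.90) and Timp2 (-0.71) passed the adjusted p alone. Mmp2 (0.41, edgeR adjusted p = 0.0989), Mmp13 and Mmp3 passed neither limit.

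The last comparison asked how these genes stood in RPE/choroid, a tissue that holds RPE, blood vessels and stroma. Photoreceptor markers were also counted there, and their sum varied widely between libraries. It ran from 41.1 to 1170 CPM in WT and from 20.9 to 564 CPM in the libraries labelled Prom1_KO. The part of photoreceptor RNA in the levels below was not tested. Per length, Timp3 was the most abundant member, at 73.6 ± 8.37 CPM per kb in WT (SD, n = 3), with Timp2 at 18.01 ± 1.54. Mmp3 (10.5 ± 4.93), Mmp2 (5.38 ± 2.13) and Mmp14 (3.66 ± 0.405) followed on the same scale. Over the WT libraries the range of Mmp2 overlapped with those of both others. Within each WT library Mmp3 was above Mmp2 (5.48 against 2.96, 10.6 against 6.95 and 15.3 against 6.24 CPM per kb). Mmp3 was also above Mmp14 in every WT library (5.48 to 15.3 against 3.20 to 3.96 CPM per kb). Mmp19 was at 1.43 ± 0.166, Timp1 at 0.542 ± 0.222, Timp4 at 0.182 ± 0.0420 and Mmp13 at 0.105 ± 0.0169 CPM per kb. Timp3 gave 77.4% to 82.7% of the summed TIMP level in WT tissue and Timp1 0.321% to 0.734%, against 28.8% to 36.0% and 14.1% to 17.8% in WT mRPE. The tables were normalized separately, so these levels are set side by side without a test.

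None of the 9 members tested passed both limits between the libraries labelled Prom1_KO and WT, in edgeR or in DESeq2, beside 0.189% of all 24926 genes in edgeR. At an unadjusted p under 0.05 edgeR counted 5 members. No share of all genes at that limit is given here, so this count cannot be read as a result about the members. At an adjusted p under 0.05 alone edgeR counted 0, beside 0.193% of all genes in edgeR, and DESeq2 counted 1, Timp3 (DESeq2 adjusted p = 0.0106). The DESeq2 share of all genes at that limit is not given here, so its count cannot be read as a result about the members. By both limits DESeq2 called 84 genes higher and 189 lower, against 0 and 47 in edgeR. The levels of 3 members did not overlap, 1 higher and 2 lower, beside 14.6% of all genes (6.7% higher and 7.89% lower).

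Timp3 was at 671, 535 and 594 CPM in WT and at 407, 415 and 346 CPM in the libraries labelled Prom1_KO. All of the latter were lower. The log2 fold change was -0.62 (SE 0.167, interval -1.02 to -0.23, edgeR adjusted p = 0.323), and without replicate 3 of the labelled group it was -0.56. Syn3 counts were 40.3% to 51.2% of Timp3 counts in these libraries. The 13 RPE markers summed to 1930 to 2872 CPM in WT and 545 to 716 CPM in the labelled group. In bulk tissue, a smaller share of RPE cells in the sample and a lower level of these genes per cell cannot be told apart. Of these markers 3 fell in edgeR, Rpe65, Lrat and Rgr, and DESeq2 also called Rlbp1, Slc16a1 and Ttr lower. Of the 13, 12 had a log2 fold change below 0 and 1 above, with a median of -0.82. The part of these markers in the Timp3 level was not tested.

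Timp2 was at 73.0, 81.7 and 86.5 CPM in WT and at 65.2, 60.3 and 65.8 CPM in the labelled group, without overlap (log2 fold change -0.34, edgeR adjusted p = 0.535). Timp1 was at 1.43, 1.17 and 0.583 CPM in WT and at 2.48, 1.98 and 1.43 CPM in the labelled group, from 40 to 128 counts per library. These groups met at 1.43 CPM, and the log2 fold change was 0.89 (interval 0.02 to 1.77, edgeR adjusted p = 0.594). Timp4, an inhibitor gene analysed only in this tissue, was at 1.15, 1.78 and 1.31 CPM in WT and at 0.932, 0.947 and 1.89 CPM in the labelled group, which overlapped.

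Mmp2 was at 10.5, 24.5 and 22.1 CPM in WT and at 7.73, 6.53 and 14.0 CPM in the labelled group (log2 fold change -1.02, interval -1.93 to -0.11, edgeR adjusted p = 0.545). Mmp3 was at 9.87, 19.0 and 27.6 CPM in WT and at 8.68, 5.19 and 15.9 CPM in the labelled group (log2 fold change -0.93, interval -2.05 to 0.19). Both overlapped, with WT replicate 1 among the labelled libraries. Without replicate 3 of the labelled group their log2 fold changes were -1.43 and -1.46. The skeletal muscle markers ranged from 301 to 949 CPM in WT and from 69.3 to 856 CPM in the labelled group, the endothelial markers from 109 to 222 and from 75.9 to 97.4 CPM, and the fibroblast and mural markers from 532 to 685 and from 520 to 605 CPM. Their part in the Mmp2 and Mmp3 levels was not tested.

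Mmp13 was at 0.323, 0.287 and 0.233 CPM in WT and at 0.543, 0.359 and 1.06 CPM in the labelled group, all of the latter higher, from 16 to 32 counts per library. Its log2 fold change was 1.18 (interval 0.10 to 2.26, edgeR adjusted p = 0.557), and without replicate 3 of the labelled group it was 0.66. Mmp14 (23.5, 24.4 and 19.7 CPM in WT and 19.4, 20.9 and 19.9 CPM in the labelled group) and Mmp19 (4.73, 5.75 and 4.74 against 4.17, 4.73 and 3.88 CPM) overlapped. Of the 89 genes tested from the other MMPs, the ADAM and ADAMTS proteases, MMP activation and clearance, the inducing factors and the matrix substrates, edgeR and DESeq2 each called 0 in RPE/choroid. In edgeR 20 of them had an unadjusted p under 0.05, again with no share of all genes to set beside this count.

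**Figure D5:**
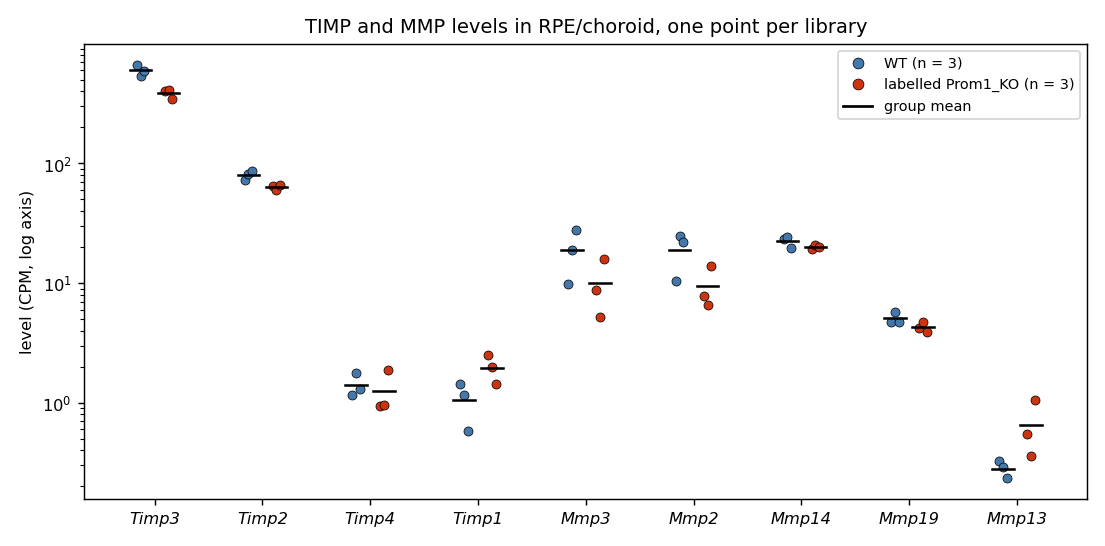
Level of each member in the 6 RPE/choroid libraries, in CPM on a log axis, with 1 point per library and a line at the group mean. Timp3 sits between 535 and 671 CPM in WT and between 346 and 415 CPM in the libraries labelled Prom1_KO, and most other members overlap between the groups.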

How the data were processed

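RNA was sequenced from 9 mRPE and 6 RPE/choroid libraries. Per the labels, the authors trimmed reads with Trim Galore 0.6.7 and aligned them with STAR to mm39. The deposited raw counts per gene, from which the authors excluded low-count genes, were used in every test. The deposited normalized values were not used. The labels name an NEB stranded kit and the study a TruSeq stranded kit, and the strand setting of the counting is not given in the sources used here.

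Libraries were grouped by their labels. In R 4.3.3, genes that reached 5 counts in 3 or more libraries went into edgeR 4.0.16 (quasi-likelihood, TMM, batch as a term in mRPE, Benjamini-Hochberg over all genes tested). KO22 with WT used 7 libraries, and comparisons with KO26 used all 9. A call needed an adjusted p below 0.05 and a log2 fold change beyond 1.2 in size, the study's limits. The standard error is the absolute log2 fold change over the square root of F. CPM are on the TMM scale, and levels between genes are CPM per kb of exons (GENCODE vM39). Within-batch differences use log2(CPM + 0.5). Replicates differed by more than sampling noise (chi-square per degree of freedom of 4.80 or more), so none was merged. Code was tested on simulated data. DESeq2 1.42.0, other filters and scalings, no batch term and leaving out each library were tried. The members and lists were chosen with earlier results of these data known. Named from each list were the called genes, at most 6 with the smallest adjusted p.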

Additional observations from a re-analysis of the deposited data

Results flagged for a closer look

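For 5 members the KO22 effect differed from the KO26 effect in mRPE by the test of that difference (edgeR adjusted p under 0.05). The difference, as the KO22 minus the KO26 log2 fold change, was 1.76 for Timp1, -2.92 for Timp3, -0.90 for Mmp14, -0.90 for Mmp19 and -0.71 for Timp2. Both effects share the 4 WT libraries, and KO26 has 2 libraries. Dixon's test could be applied only to the 4 WT mRPE libraries, where it marked none. It could not test the KO26 libraries, which the study removed as outliers.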

How the results depend on the processing

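Timp1 and Timp3 passed both limits in all 16 alternatives for KO22 with WT (log2 fold change 2.24 to 2.54 and -3.62 to -2.49) and in all 18 for KO22 with KO26 (1.66 to 1.99 and -3.93 to -2.16). Without the fold limit, 6 members were called in KO22 with WT and 5 in KO22 with KO26. In KO26 with WT and in RPE/choroid no alternative called a member by both limits. Members that were not called reversed as follows, and the cause was not tested. Leaving out 1 library, Mmp13 ran from -0.84 to 0.098 in KO22 with WT (above 0 without WT or KO22 replicate 1), from -0.82 to 0.51 in KO26 with WT (without WT or KO26 replicate 1) and from -0.55 to 0.35 in KO22 with KO26 (without KO22 replicate 1 or KO26 replicate 2). Mmp3 ran from -0.59 to 0.66 (below 0 without KO22 replicate 2), from -0.43 to 0.032 (above 0 without WT replicate 3) and from -0.25 to 0.93 (below 0 without KO22 replicate 2) in the same order. Timp3 in KO26 with WT ran from -0.85 to 0.50, below 0 without WT replicate 1, WT replicate 2 or KO26 replicate 2. Timp4 in RPE/choroid ran from -0.60 to 0.01, above 0 without WT replicate 2. Mmp13 was 0.092 in KO22 with WT and 0.31 in KO26 with WT in batch 2 alone, and 0.056 in KO22 with KO26 without the batch term.

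Counts over all genes moved more. Without the fold limit 5506 genes were higher and 5331 lower in KO22 with WT, 490 and 235 in KO26 with WT (main 250 and 149), and 3388 and 3744 in KO22 with KO26 (main 1568 and 2229). For KO26 with WT, DESeq2 gave 269 lower, no batch term 123 and 71, batch 2 alone 425 and 256, WT and KO26 libraries alone 408 and 410, and leaving out 1 library 68 (without WT replicate 2) to 471 (without KO22 replicate 1) higher and 32 (without KO26 replicate 1) to 407 (without KO22 replicate 1) lower. KO22 and KO26 libraries alone gave 988 and 1348. In RPE/choroid (main 0 and 47), DESeq2 gave 84 and 189, filterByExpr 1 higher, the fit without mitochondrial and 18S genes, chosen after seeing the data, 1 higher, and leaving out 1 library 0 to 5 higher and 9 (without labelled replicate 2) to 37 (without labelled replicate 3) lower. No paired analysis was possible because the labels give no replicate numbers that the groups share. Mmp3 and Mmp13 in mRPE and Mmp13 and Timp4 in RPE/choroid had 1 to 105 counts per library, and how far depth limits them was not tested.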
